A study of Mus musculus with 8 samples.

Results

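Splenic regulatory T cells (Treg) were compared with splenic conventional CD4 T cells (Tcon) on 4 bead arrays, which form 2 pairs, 1 for each genotype. A gene was taken as a member when Treg and Tcon differed at least 2-fold in the same direction in both pairs (a log2 difference of at least 1) and its probe was detected, with a detection p under 0.05, on both arrays of the brighter cell type. Of 7916 genes tested, 494 met this rule: 323 were higher in Treg, which is 4.08% of the genes tested, and 171 were lower, which is 2.16%. No gene passed the test across all genes described below, so that all differences here are given as measured values. The rule itself favours a gap between the Treg and Tcon arrays of a member. Such gaps are therefore description only, and are given without the share of all genes that have one.

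The study sorted CD4 T cells from the spleen and the small intestine (gut) of C57B6 mice of both sexes aged 7 to 14 weeks, and hybridised 8 arrays, 1 for each combination of tissue, cell type and genotype. Control mice were MHCII+/-, FOXP3GFP, that is, heterozygous for MHC class II. K14 mice were K14Aβb, FOXP3GFP, in which the keratin 14 promoter drives the class II Aβb chain, and per the study's design text they do not express MHC class II outside the thymus. The class II gene H2-Ab1 was nevertheless brighter on both K14 spleen arrays (13.19 in Tcon and 13.38 in Treg) than on both control ones (11.61 and 11.01), and which allele or cells its probe read was not tested. All 4 groups carried the FOXP3GFP reporter, and live TCRb+CD4+CD8-B220- cells were taken in the sort, GFP+ as Treg and GFP- as Tcon. Each array held RNA pooled from several mice, and an array stands alone for its combination, so the spread between mice was not measured, and p-values measure only the spread between pairs. The labels do not say whether Treg and Tcon of 1 pair came from the same mice. Fewer cells with an RNA and less of it per cell cannot be told apart in pooled RNA.

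Treg are CD4 T cells that restrain immune responses, and their identity rests on the forkhead transcription factor Foxp3. They take up interleukin-2 through a receptor with a high-affinity alpha chain, Il2ra, and carry inhibitory and costimulatory receptors such as Ctla4 and Tnfrsf4 at high levels. Most Tcon in the spleen are resting cells that circulate through lymphoid tissue, with a smaller share of effector and memory cells that can make cytokines. In mice without MHC class II outside the thymus, CD4 T cells still form in the thymus but do not meet class II molecules in the periphery.

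Intensities were corrected for background, normalized between arrays and taken to log2, and a level below is this log2 intensity of the brightest probe of a gene. The lowest detected level of a spleen array was 6.72 to 6.88, so a level under these was not detected, and a difference from it is no exact fold. The 4 spleen arrays had 8822 to 9240 detected probes and median intensities of 211.4 to 242.6. The CD3 chain gene Cd3d, which marks T cells, stood at 15.86 in control Tcon, 15.81 in control Treg, 15.86 in K14 Tcon and 15.60 in K14 Treg. The coreceptor gene Cd4 had levels of 7.67 to 8.30. Cd8b1, the beta chain of the coreceptor used to exclude CD8 T cells in the sort, was detected on all 4 arrays at levels of 12.55 to 13.37.

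Foxp3, whose reporter defined the sort, did not separate the cell types on these arrays. Its brightest probe stood at 7.06 in control Tcon, 6.94 in control Treg, 6.99 in K14 Tcon and 6.91 in K14 Treg, and its other probes were detected on none of the 4 spleen arrays. The difference was -0.10 ± 0.21 (Treg minus Tcon in 2 pairs, ± SE from the spread pooled over all 4 pairs, limma adjusted p = 0.898). Known Treg genes were put on a list of 23, of which 20 were measured. Of these 20, 18 were higher members and none was a lower member, against 4.08% and 2.16% of all genes tested. The list's median difference was 2.96, beside -0.04 over all genes. Of the 20, 19 were higher in Treg in both pairs and 1 was lower in both. The list was drawn up with earlier results of these arrays known, and its count rests on the differences that chose the members, so it describes these arrays and is no independent check of the cell types.

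Itgae had the largest difference of all members. It encodes the alpha E integrin chain CD103, which pairs with the beta 7 chain and binds E-cadherin on epithelial cells. Its level was 7.73 in control Tcon and 13.56 in control Treg, and 6.91 in K14 Tcon and 14.82 in K14 Treg. Both Treg arrays thus lay far above both Tcon arrays, by 6.87 ± 0.55 on the log2 scale (adjusted p = 0.103, limma with Benjamini-Hochberg adjustment over 7916 genes, 2 pairs). The partner chain gene Itgb7 had levels of 15.72 and 15.65 in Tcon and 15.97 and 16.03 in Treg, a difference of 0.31 ± 0.22 (limma adjusted p = 0.671). Itgb7 was thus as high as the gut Treg levels described below as near the top of the arrays' scale. That leaves little room for a rise, so its difference is not set against that of Itgae. Itgae was the only member among the 9 measured genes of the integrin and adhesion list, beside 4.08% higher and 2.16% lower members of all genes. It was not the only integrin gene among the members: Itga2b, kept on the erythroid and platelet list, was a higher member too. The list's median was 0.31.

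Ctla4, the inhibitory receptor that competes with Cd28 for its ligands, had levels of 10.01 in control Tcon, 14.24 in control Treg, 9.29 in K14 Tcon and 13.95 in K14 Treg. The groups did not overlap, and the difference was 4.45 ± 0.23 (limma adjusted p = 0.103). Cd28 itself had levels of 12.04, 11.88, 11.27 and 11.40 on the arrays in the same order, a difference of -0.02 ± 0.23. Cd83, a surface protein of activated lymphocytes and dendritic cells, was at 8.53 and 9.20 in control and K14 Tcon and at 13.14 and 12.93 in Treg. Cd86, a ligand of both Cd28 and Ctla4, was also a higher member (1.74 ± 0.32). These were the 3 higher members among 13 measured costimulation and checkpoint receptors, none of which was a lower member. All genes tested gave 4.08% and 2.16%, and the list's median was 0.86.

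Of 10 measured genes of the TNF receptor superfamily and its adaptors, 4 were higher members and none was a lower one. Among all genes these shares were 4.08% and 2.16%. Tnfrsf4 (OX40), a costimulatory receptor, had levels of 10.27 and 9.44 in control and K14 Tcon and of 14.05 and 13.90 in Treg. Tnfrsf9, another costimulatory receptor, was at 7.92 and 7.20 in Tcon and at 10.43 in Treg of both genotypes. For Tnfrsf18 (GITR) the Tcon arrays gave 11.25 and 11.52 and the Treg arrays 13.50 and 13.20. In each of these genes both Treg arrays were above both Tcon arrays, with differences of 4.12 ± 0.31, 2.87 ± 0.28 and 1.97 ± 0.26. Cd40 was the other higher member, with Tcon at 7.39 and, not detected, 5.81 and Treg at 8.77 and 9.19. Its other probe detected on both Treg arrays differed by -0.19 and 0.25, so the probes of Cd40 disagree. The family's median difference was 0.88, and Traf1, an adaptor of these receptors, was just short of the 2-fold line in the control pair (12.89 to 13.85 in the control pair and 12.72 to 13.77 in the K14 pair).

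Genes of interleukin-2 reception and its targets were members in both directions. Il2ra (CD25) was not detected on either Tcon array, with levels of 5.86 and 6.21, and was at 9.26 and 9.09 in Treg. Set against the lowest level detected on the Tcon arrays, Treg had at least 5.18-fold more signal. The other receptor chain measured, Il2rb, was higher by 1.85 in the control pair but by 0.49 in the K14 pair and was no member. Cish and Socs2, feedback inhibitors of cytokine signalling that interleukin-2 induces through Stat5, were higher members: Cish was at 13.22 and 13.17 in Tcon and 15.30 and 14.99 in Treg, and Socs2 had a difference of 2.77 ± 0.40. Bcl2, the survival gene on the same list, was a lower member, at 11.65 and 12.54 in Tcon and 10.38 and 10.85 in Treg. The 4 other Bcl2 probes detected on both Tcon arrays differed by -0.90 to -0.40, none of them 2-fold. In all, 3 of 11 measured genes of this list were higher and 1 was lower, beside 4.08% and 2.16% of all genes. The list's median was 0.25.

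Other Treg genes among the members cover transcription, adhesion and enzyme activity. Ikzf2 (Helios) and Ikzf4 (Eos), zinc finger transcription factors of Treg, were detected on no Tcon array and on both Treg arrays. Their Treg levels were 7.74 and 7.00 for Ikzf2 and 8.87 and 10.33 for Ikzf4, at least 1.48-fold and 6.95-fold above the lowest detected level. Nrp1 (neuropilin-1), a receptor often used to mark Treg of thymic origin, was at 10.65 and 10.68 in Tcon and 14.20 and 14.73 in Treg. Gpr83, a G protein-coupled receptor of Treg, was at 9.98 and 10.19 in Tcon and 13.59 and 13.71 in Treg. All these Treg arrays stood above all Tcon arrays. Nt5e (CD73), the ecto-enzyme that makes adenosine, had a difference of 2.62 ± 0.29, and Izumo1r, a folate receptor family member, of 1.98 ± 0.28. Ebi3, a cytokine subunit shared by interleukin-27 and interleukin-35, went from 5.76 in control Tcon to 10.96 in control Treg and from 9.01 to 11.95 in the K14 pair.

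**Figure D1:**
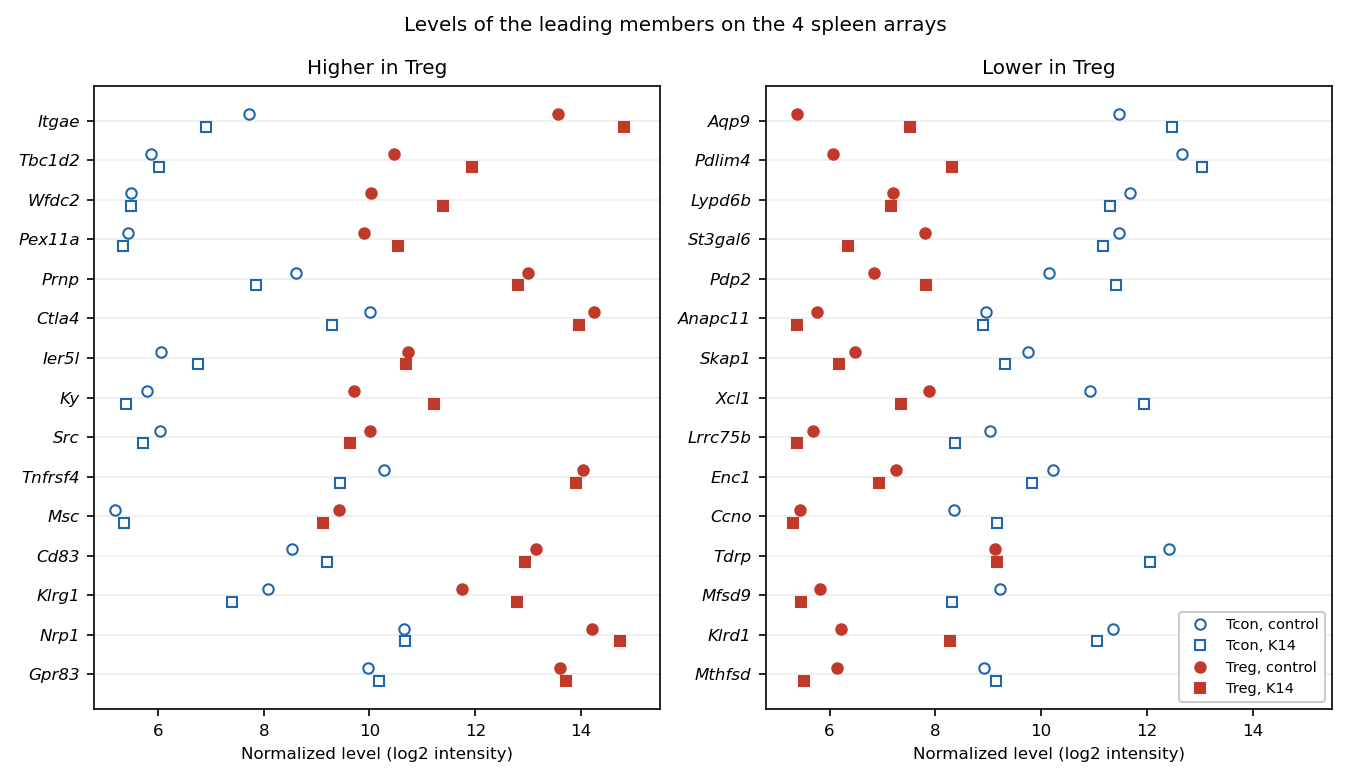
Normalized level (x axis, log2 intensity) of the 15 members with the highest and the 15 with the lowest Treg minus Tcon difference, ranked by the smaller of the 2 pair differences, on each spleen array. Circles are control and squares K14, filled symbols Treg and open symbols Tcon. For each of these genes the filled symbols lie on 1 side of the open ones. The genes were ranked on these same differences, so the choice itself favours such a gap. It is widest for Itgae (7.73 and 6.91 against 13.56 and 14.82).

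The remaining genes among the 15 highest members are less often named as Treg genes. Tbc1d2, which holds a domain found in regulators of Rab proteins, was at 5.88 and 6.02 in Tcon, where it was not detected, and at 10.46 and 11.94 in Treg, at least 21.1-fold higher. Wfdc2, a secreted protein with the fold of protease inhibitors, gave a bound of at least 14.9-fold, and Pex11a, a peroxisome membrane protein, of at least 10.7-fold. Prnp, the prion protein gene, was detected on all 4 arrays, with levels of 8.62 and 7.86 in Tcon and 12.99 and 12.80 in Treg and a difference of 4.66 ± 0.26. Src, the founding member of its kinase family, was undetected in Tcon and at 10.01 and 9.64 in Treg, at least 8.12-fold higher. Klrg1, an inhibitory lectin-like receptor of highly differentiated T cells, was at 8.09 and 7.40 in Tcon and at 11.75 and 12.79 in Treg. Ier5l and Msc (musculin, a transcription factor) were also undetected in Tcon, with bounds of at least 14.9-fold and 5.51-fold, and so was Ky, at least 12.7-fold.

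On the list of effector Treg genes, 15 of 17 measured genes were higher in both pairs, beside 27% of all genes. Higher members were 5 of the 17, beside 4.08% of all genes. Besides Klrg1 these were Il10, the inhibitory cytokine, Irf4, a transcription factor of activated lymphocytes, Nfil3, a transcription factor, and S100a6, a calcium-binding protein. Il10 was at 6.39 and 7.96 in Tcon and at 10.88 and 9.30 in Treg, a difference of 4.49 in the control pair and 1.34 in the K14 pair. Irf4 was at 9.50 and 10.28 in Tcon and 12.06 and 11.73 in Treg. Icos, a costimulatory receptor of the same list, had differences of 1.08 and 0.63 and was no member. Lag3, an inhibitory receptor, was at 8.14 and 10.54 in the control pair and 7.58 and 8.55 in the K14 pair, just short of the line in the latter.

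The 5′ flanks of 4 members are shown because these genes stand for the interleukin-2 receptor, the inhibitory and costimulatory receptors and the lowest member, and because no probe sequences were used here. Each is the 250 bases before the annotated start in RefSeq (GRCm38.p6), read on the gene's strand. Ctla4 lies at chr1:60908775-60909024, plus strand. Il2ra lies at chr2:11642542-11642791, plus strand. Tnfrsf4 lies at chr4:156013445-156013694, plus strand. Aqp9, with the first of its 2 starts, lies at chr9:71163290-71163539, minus strand. Capitals mark matches to 4 short motifs on either strand: GTAAACA (forkhead), TGTGGT (Runx), TGANTCA (AP-1) and GGAAAA (NFAT). Only the last was found in these windows, once in Ctla4 and once in Aqp9.
Ctla4: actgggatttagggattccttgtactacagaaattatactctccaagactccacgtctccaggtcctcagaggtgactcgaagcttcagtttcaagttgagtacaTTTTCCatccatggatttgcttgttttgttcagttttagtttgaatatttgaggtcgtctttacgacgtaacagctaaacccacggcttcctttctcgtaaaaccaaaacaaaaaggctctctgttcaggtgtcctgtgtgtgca
Il2ra: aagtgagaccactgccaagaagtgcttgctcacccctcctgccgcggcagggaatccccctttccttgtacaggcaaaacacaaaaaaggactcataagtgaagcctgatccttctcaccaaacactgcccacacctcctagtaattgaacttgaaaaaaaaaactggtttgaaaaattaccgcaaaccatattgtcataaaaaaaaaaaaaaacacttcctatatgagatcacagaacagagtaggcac
Tnfrsf4: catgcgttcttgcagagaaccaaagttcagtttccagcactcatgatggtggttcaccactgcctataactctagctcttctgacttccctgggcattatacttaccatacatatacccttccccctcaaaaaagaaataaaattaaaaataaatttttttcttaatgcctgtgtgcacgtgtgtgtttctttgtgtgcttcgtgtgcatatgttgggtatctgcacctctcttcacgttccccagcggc
Aqp9: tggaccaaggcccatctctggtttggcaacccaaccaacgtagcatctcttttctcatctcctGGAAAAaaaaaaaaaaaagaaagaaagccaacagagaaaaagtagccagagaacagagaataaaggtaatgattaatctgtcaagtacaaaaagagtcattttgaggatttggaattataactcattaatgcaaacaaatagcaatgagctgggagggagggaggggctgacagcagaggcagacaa
A promoter was matched for 6503 of the 7916 genes, among them 248 higher and 142 lower members. Shares below are of these genes, and a gene counted when the window of any of its annotated starts held the letters. Genes with several starts thus had more windows to match. The forkhead letters were found for 3.63% of the higher members, 5.63% of the lower members and 2.77% of all genes tested. For the NFAT letters the shares were 19.4%, 22.5% and 21.4%. The Runx letters were in 14.9%, 14.1% and 13.5%, and the AP-1 letters in 6.85%, 5.63% and 5.92%. These shares describe letters in a window and say nothing of binding.

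Genes of Tcon effector functions and of resting T cells held most of the lower members found on a list. On the list of helper lineage genes and cytokines, 6 of 16 measured genes were lower members and none was a higher one, beside 2.16% and 4.08% of all genes. Ifng, the cytokine of type 1 helper cells, was at 10.35 and 10.32 in Tcon and 8.14 and 8.30 in Treg. Il4, the cytokine of type 2 helper cells, was at 9.58 and 9.83 in Tcon and 7.13 and 5.69 in Treg. Tbx21 (T-bet), the transcription factor of type 1 helper cells, was at 10.12 and 10.89 in Tcon and 8.18 and 7.62 in Treg. In each of the 3 genes both Treg arrays were below both Tcon arrays. The chemokine Xcl1 differed by -3.82 ± 0.66, the death receptor ligand Fasl by -2.57 ± 0.41 and the chemokine Ccl5 by -1.74 ± 0.38 (limma adjusted p between 0.170 and 0.252). Il17a, Il17f and Il21 were not detected on any spleen array, and Tnf and Bcl6 had differences of 0.05 ± 0.30 and -0.20 ± 0.41.

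Memory and cytotoxic T cell genes gave 6 lower and no higher members of 13 measured, beside 2.16% and 4.08% of all genes. Their median was -0.74. Klrd1 (CD94), a lectin-like receptor of cytotoxic lymphocytes, was at 11.35 and 11.07 in Tcon and at 6.21 and 8.28 in Treg. Nkg7, a protein of cytotoxic granules, was at 12.59 and 13.63 in Tcon and 11.31 and 11.52 in Treg. Both genes had all Treg values below all Tcon values. The chemokine receptor Cxcr6, the transcriptional regulator Id2 and the receptor Klrk1 were detected on both Tcon arrays and on no Treg array, at least 2.66-fold, 1.77-fold and 1.84-fold lower in Treg. Prf1 (perforin) was not a member, with a difference of -0.47 ± 0.25.

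Genes of resting T cells were lower in Treg throughout the measured list: all 10 were lower in both pairs, beside 32.8% of all genes. Lower members were 5 of the 10, beside 2.16% of all genes. Lef1, a transcription factor of naive T cells, was at 7.53 and 7.73 in Tcon and below detection in Treg (5.53 and 5.57), at least 1.83-fold lower. Ccr7, the receptor that guides T cells into lymph nodes, was at 12.20 and 12.10 in Tcon and 10.97 and 10.72 in Treg. Igfbp4, which binds insulin-like growth factors, was at 14.79 and 14.09 in Tcon and 12.02 and 12.50 in Treg. Dapl1 was at 10.07 and 8.86 in Tcon and at 6.92 and 6.20 in Treg, and Bcl2 differed by -1.48 ± 0.42. Il7r, the interleukin-7 receptor, was lower by 1.43 in the control pair and, short of the line, by 0.70 in the K14 pair. Klf2, Satb1, Foxp1 and Actn1 were lower by less than 2-fold on average, with differences from -0.95 ± 0.25 (Foxp1) to -0.51 ± 0.26 (Klf2).

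The lowest members by the smaller pair difference were Aqp9 and Pdlim4. Aqp9, a channel for glycerol and water, was at 11.48 and 12.47 in Tcon and at 5.39 and 7.51 in Treg (-5.53 ± 0.53). Pdlim4, an actin-associated adaptor, was at 12.66 and 13.04 in Tcon and at 6.07 and 8.32 in Treg (-5.65 ± 0.75). In both genes the K14 Treg array was brighter than the control Treg array, and the control Treg array was not above detection. Lypd6b was at 11.67 and 11.31 in Tcon and 7.21 and 7.16 in Treg, and St3gal6, a sialyltransferase, at 11.47 and 11.17 in Tcon and 7.81 and 6.34 in Treg. Skap1, an adaptor that links the T cell receptor to integrins, and Anapc11, a subunit of the anaphase-promoting complex, were detected in Tcon only, at least 6.85-fold and 4.48-fold lower in Treg. Enc1, a protein with kelch repeats, differed by -2.94 ± 0.21, with Tcon at 10.23 and 9.84 and Treg at 7.25 and 6.93.

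For the machinery of the T cell receptor, none of 16 measured genes was a member, beside 4.08% of all genes in the higher and 2.16% in the lower direction. Of these 16, 9 were lower in Treg in both pairs (56.2%, beside 32.8% of all genes) and 4 were higher in both. The median difference was -0.16, and Cd3e, Cd3g, Zap70 and Lat had differences of -0.0022, -0.18, -0.05 and -0.45. Of 15 genes induced by T cell receptor signals, 3 were higher members: Irf4 and the phosphatases Dusp2 (1.62 ± 0.53) and Dusp4 (at least 3.34-fold, undetected in Tcon). Cd5, an inhibitory receptor whose level follows the strength of receptor signals, was at 13.94 in control Tcon, 14.20 in control Treg, 12.13 in K14 Tcon and 14.01 in K14 Treg. Egr2, a transcription factor induced by the receptor, was at 11.37, 11.62, 8.43 and 11.44 in that order. For both genes the K14 Tcon array was the low one, so that the K14 pair differed (1.89 and 3.02) and the control pair hardly did (0.26 and 0.24). With 1 array for each combination, the difference between pairs has no test.

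Chemokine receptors gave 1 higher and 2 lower members of 10 measured, beside 4.08% and 2.16% of all genes tested. Ccr6, the receptor of Ccl20, was at 9.38 and 10.71 in the control pair and 5.89 (not detected) and 10.62 in the K14 pair. Its other probe detected on both Treg arrays differed by 0.49 and 1.16, short of the line in the control pair, while Ccr7 and Cxcr6 were the lower members described above. Of 12 measured cytoskeletal genes, 6 were higher and 1 was lower, with a median of 1.46. Capg, an actin-capping protein, was at 12.08 and 11.63 in Tcon and 14.71 and 15.13 in Treg. Actg2, a smooth muscle actin, was at 8.50 and 10.56 in Tcon and 12.27 and 13.68 in Treg. Among metabolic and transport genes, 1 of 14 was a higher member, Dgat2, an enzyme of triglyceride synthesis (at least 4.23-fold, undetected in Tcon), and 1 was a lower member, Aqp9. The TGF-beta receptors parted: Tgfbr1 was a higher member (1.18 ± 0.40) and Tgfbr3 a lower one, at 10.06 and 9.97 in Tcon and 7.73 and 6.89 in Treg. Interferon response genes held no higher member and 1 lower member of 15, Rtp4 (-1.57 ± 0.42), and the list's median was -0.18. At the shares of all genes, 4.08% and 2.16%, lists this short would hold few members in any case. The interferon and metabolic counts therefore say little about these lists.

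**Figure D2:**
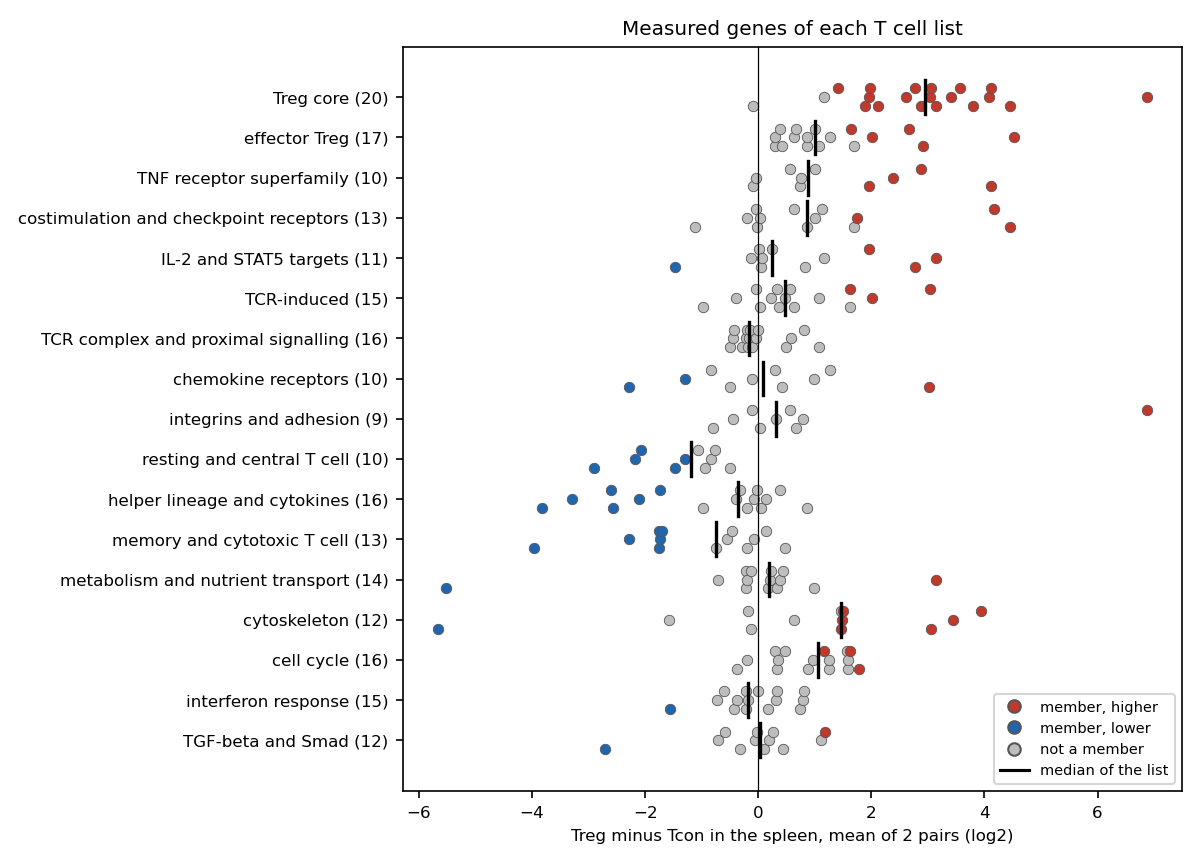
Treg minus Tcon difference in the spleen (x axis, log2, mean of 2 pairs) for each measured gene of 17 T cell lists, with the number measured in brackets. Dots are genes, coloured where the gene is a member, and black bars are list medians. The Treg core list lies to the right (median 2.96) and the resting list to the left (median -1.18), while the T cell receptor complex sits around 0 (median -0.16).

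Cell cycle genes were higher in Treg in both pairs for 13 of 16 measured genes (81.2%, beside 27% of all genes), and 3 were higher members, Bub1b, Plk1 and Tk1, beside 4.08% of all genes. Tk1, the thymidine kinase of dividing cells, was at 8.40 and 9.93 in the control pair and 9.44 and 11.16 in the K14 pair. Top2a, the topoisomerase of dividing cells, was at 7.51 and 8.22 in the control pair and 7.62 and 10.03 in the K14 pair, and missed the line in the former. The list's median was 0.70 in the control pair and 1.45 in the K14 pair, beside -0.02 and -0.04 over all genes.

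The test across all genes used limma over the 8 arrays, with a term for each of the 4 pairs and separate Treg terms for spleen and gut. In the spleen 0 of 7916 genes (0%) passed an adjusted p of 0.05, the smallest being 0.103, while 904 had an unadjusted p under 0.05, 518 of them higher in Treg. Without the pairing block 49 genes passed, 40 higher and 9 lower, and all 49 were members. Itgae, Prnp, Ctla4, Gjb2, Ier5l and Anapc11 then had an adjusted p of 0.00827, and Lypd6b, Tnfrsf4, Il2ra and Lef1 had 0.00888, 0.0125, 0.0142 and 0.0229. The members were picked on the same differences, so these passes are no separate evidence about them.

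The 2 pairs gave related but unequal pictures. In the control pair alone 626 genes were at least 2-fold higher and detected, of which the higher members are 51.6%, and 514 were lower, of which the lower members are 33.3%. In the K14 pair the counts were 831 and 727, and the members are 38.9% and 23.5% of them. Another 127 genes differed at least 2-fold in opposite directions in the pairs. Across all 7916 genes, which are not independent replicates, the pair differences had a Pearson correlation of 0.39. The higher members had median differences of 1.78 in the control pair and 2.05 in the K14 pair, and the lower members of -1.59 and -1.86. Of the higher members 184 of 323, and of the lower members 94 of 171, had the larger difference in the K14 pair.

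**Figure D3:**
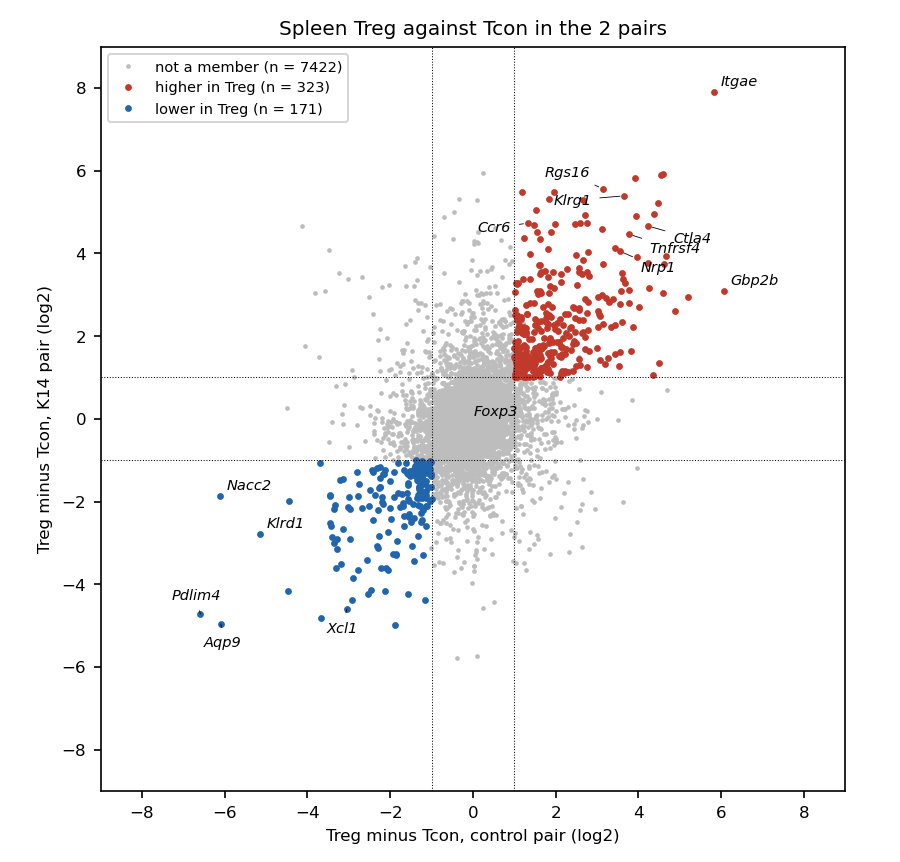
Treg minus Tcon difference of each of the 7916 genes in the control pair (x axis, log2) and in the K14 pair (y axis, log2). Red dots are the 323 higher and blue dots the 171 lower members, and dotted lines mark the 2-fold line. Itgae stands at the upper right corner (5.83 and 7.91), Gbp2b, undetected in Tcon, far out in the control pair (6.07 and 3.10), and Foxp3 near the centre.

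Some members had pair differences far apart, often with 1 array at background. Prg2, an eosinophil granule protein gene, was not detected in Tcon and stood at 7.67 in control Treg and 10.998 in K14 Treg, at least 5.78-fold higher over both pairs. Lrrc75a was at 7.38 and 8.56 in the control pair, and in the K14 pair it was not detected in Tcon and was at 10.85 in Treg. Nacc2 was at 11.56 in control Tcon and not detected in control Treg, and at 12.16 and 10.30 in the K14 pair. Mboat1 was at 10.04 and 8.89 in the control pair, and at 10.25 in K14 Tcon and not detected in K14 Treg. At the 2-fold line, the members nearest inside on the higher side were Pafah1b3, Aldoc and Trex1, with smaller pair differences of 1.002, 1.003 and 1.003, and just outside were Sytl1, Matk and Slamf1, at 0.999, 0.99 and 0.98. On the lower side Lpin1, Ikzf1 and Irak3 lay inside, at -1.0002, -1.002 and -1.01, and Sgk1, Ampd1 and Gcnt2 outside, at -0.9999, -0.995 and -0.99.

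Most members were bright enough on both sides to give a measured fold, but not all. Of the higher members, 164 were detected on both Tcon arrays, 58 on 1 and 101 on neither. For these 101 only a lower bound of the fold can be given, and it was at least 2 for 70 of them. Of the lower members, 92 were detected on both Treg arrays, 29 on 1 and 50 on neither, and the bound was at least 2 for 31 of the 50. At least 4-fold differences in both pairs were found for 87 higher and 41 lower members, and at least 8-fold for 27 and 8. Another probe was available for 186 members, and for 75 of them 1 was detected on both brighter arrays, a filter that the difference itself helps a probe to pass. Of these 92 other probes, 87 differed in the same direction in both pairs, 55 of them at least 2-fold, and 1 differed the opposite way in both, which describes the 75 members only. Itgae, for example, had a further bright probe at 7.74 and 6.69 in Tcon and 13.25 and 14.72 in Treg.

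The gut differences had no part in the rule for members. The gut arrays did share the normalization, the detection filter and the choice of probe with the spleen arrays. Members also had to be detected on both brighter spleen arrays, while all genes tested include dimmer ones. How much this adds to the shares below was not tested. Of the 323 higher members, 203 (62.8%) were also higher in Treg in both gut pairs, where 28.8% of all genes tested were. At least 2-fold differences in both gut pairs were found for 93 of them (28.8%), beside 3.49% of all genes, and 30 (9.29%) were lower in both gut pairs. Of the 171 lower members, 94 (55%) were lower in both gut pairs, beside 29.2% of all genes, 43 (25.1%) at least 2-fold, beside 2.93%, and 25 (14.6%) were higher in both. The gut differences were smaller: the medians of the higher members were 0.76 in the control pair and 0.86 in the K14 pair, and of the lower members -0.55 and -0.53. The spleen differences were selected for their size and the gut differences were not.

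Ctla4 showed how the tissues differ in level. In gut Tcon it stood at 15.26 and 15.16, above both splenic Treg arrays, and in gut Treg at 16.01 and 15.86, a gut difference of 0.73. These gut Treg levels lie near the top of the arrays' scale, with a deposited intensity of up to 66353 beside array maxima of 70437 to 72192, which leaves little room above them, so the gut difference is not set against the spleen's. Itgae was at 13.58 and 13.80 in gut Tcon and 15.67 and 16.05 in gut Treg, also near the top (up to 67220), and Tbc1d2 at 12.84 and 11.28 in gut Tcon and 11.77 and 10.97 in gut Treg. For these genes the splenic Tcon arrays were the low ones of the 8. Klrg1 was at 13.23 and 14.66 in gut Treg, and in gut Tcon it was not detected on the control array and at 8.21 on the K14 array. Aqp9 was at 10.47 and 12.17 in gut Tcon and was not detected in gut Treg. The difference between spleen and gut itself passed limma's test for 0 of 7916 genes (0%), with a smallest adjusted p of 0.418 and 577 genes at an unadjusted p under 0.05, so no member is called particular to the spleen.

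**Figure D4:**
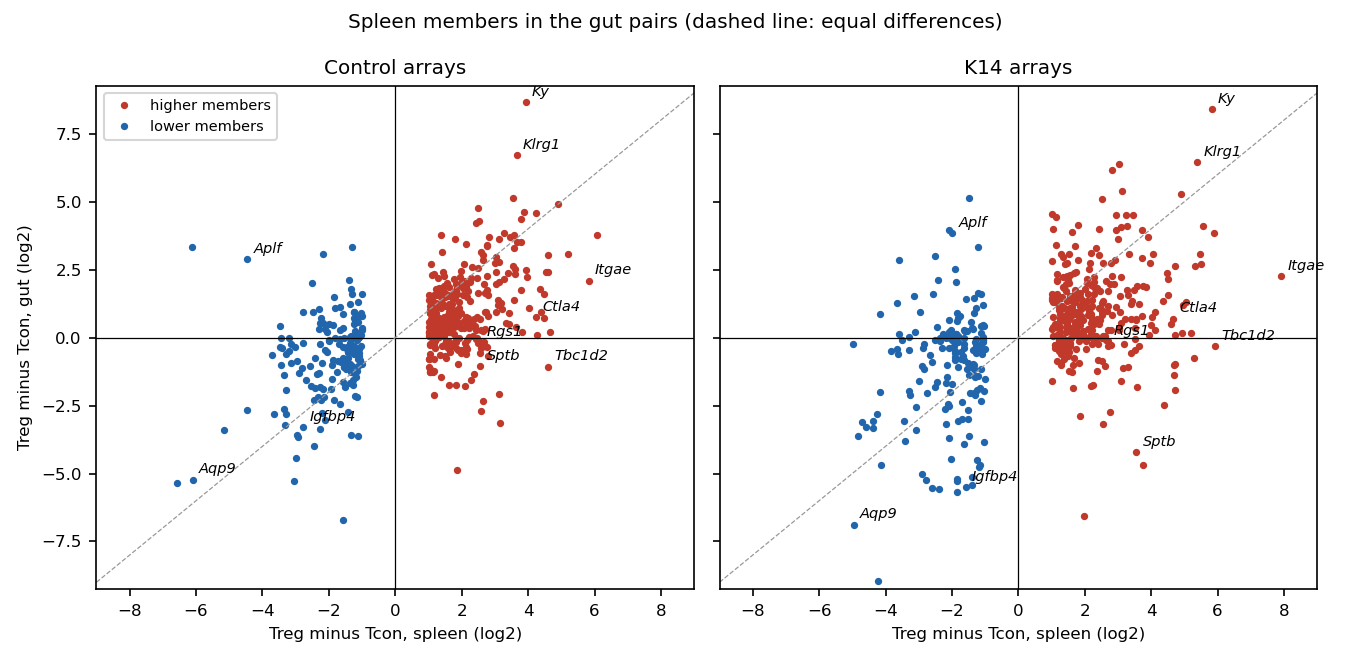
Treg minus Tcon difference of the 494 members in the spleen (x axis, log2) and in the gut (y axis, log2), for control arrays on the left and K14 arrays on the right. Red dots are higher and blue dots lower members, and the dashed line marks equal differences. Most red dots lie above 0 in the gut but below the dashed line, as the medians of 0.76 and 0.86 beside 1.78 and 2.05 show.

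Marker genes of other cell types gave signal on the spleen arrays, although the sort took CD8- and B220- cells, and for 5 of the lists the sums were higher on both K14 arrays. The 7 measured B cell genes summed to a linear signal of 3287 in control Tcon, 6554 in control Treg, 11676 in K14 Tcon and 19412 in K14 Treg. For 16 myeloid and dendritic cell genes the sums were 10443, 8926, 23205 and 20913, and for 9 genes of MHC class II presentation 15648, 16838, 38343 and 42629. For 4 natural killer and innate lymphoid genes they were 892, 520, 3281 and 3068, and for 5 erythroid and platelet genes 1070, 1290, 6188 and 5506. The other lists lay closer together, with sums of 6817 to 11998 for 3 plasma cell genes, 6781 to 11434 for 2 genes of CD8 and gamma delta T cells, 913 to 2246 for 8 pancreas genes and 1995 to 3747 for 4 stromal genes, and none of 9 mast cell genes passed the filter. The defining B cell genes Ms4a1 and Pax5 and the myeloid genes Csf1r, Itgam and Itgax were below the detection filter or had no named probe. The B cell sum was thus higher in Treg than in Tcon in both pairs, but its single genes went both ways. Of the 7 genes, 2 were higher in both pairs and 2 were lower in both. Their median difference was 0.51 in the control pair and -0.22 in the K14 pair. Members are 4.08% and 2.16% of all genes, so lists this short would hold few in any case: none of the B cell, class II, plasma cell, natural killer, CD8, pancreas or stromal genes was one, S100a8 (a neutrophil protein, 7.61 and 5.80 in the control pair and 10.76 and 8.95 in the K14 pair) was lower, and Itga2b (a platelet integrin) was higher. Cd79b, a B cell receptor chain, was at 11.14 and 12.97 in Tcon and 12.24 and 13.93 in Treg, just short of the line in the K14 pair. The part of such RNA in the members' differences was not tested.

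**Figure D5:**
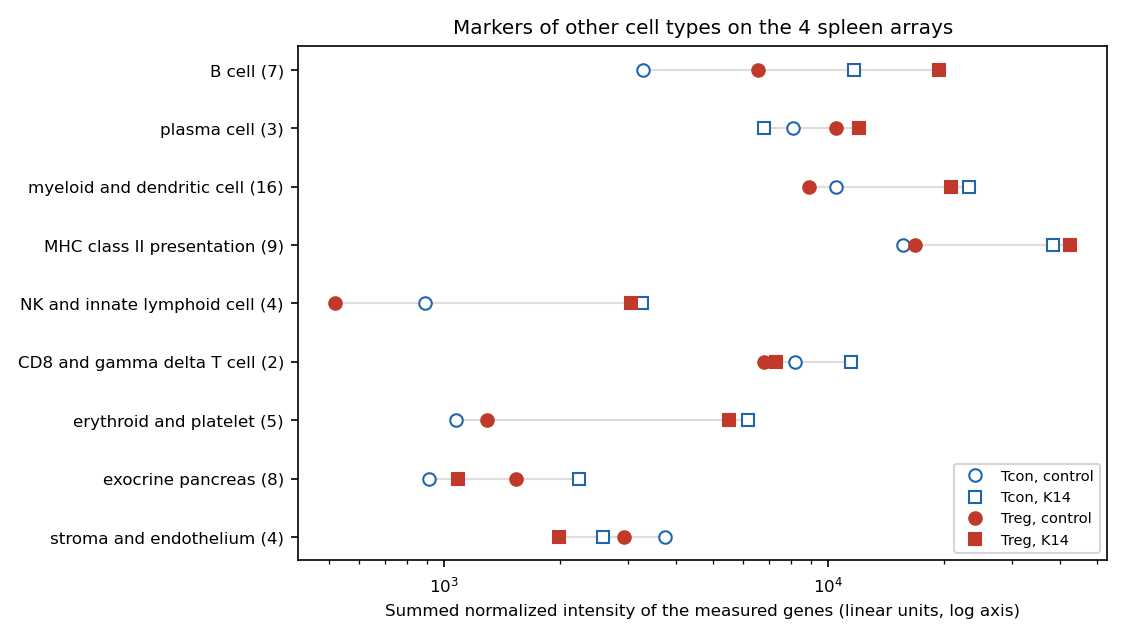
Summed normalized intensity (x axis, linear units on a log axis) of the measured marker genes of 9 other cell types on the 4 spleen arrays, with the number of genes in brackets. Circles are control and squares K14, filled symbols Treg and open symbols Tcon. For B cell, myeloid, class II, natural killer and erythroid markers both squares lie to the right of both circles. In these lists other than B cell, filled and open symbols of 1 genotype lie closer together. The B cell sums were 3287 in control Tcon, 6554 in control Treg, 11676 in K14 Tcon and 19412 in K14 Treg, with a wide gap within each genotype too.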

How the data were processed

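Each of 8 Illumina mouse bead arrays held pooled RNA of 1 sorted population. The deposited table holds, per the file headers, a linear intensity and a detection p-value for each of 25697 probes, and its background subtraction is not given in the sources used here. A second table deposited by the authors gives log2 values, with normalization and centring unstated, and served as an alternative. Background was removed with limma 3.58.1 in R 4.3.3 (normexp on the detection p-values, nec), 16 was added, and arrays were quantile-normalized on the log2 scale. Probes detected on at least 2 of 8 arrays were kept, and the brightest of the 10021 named probes of a gene stood for it, giving 7916 genes. Names came from the platform's probe table, in which 23978 probes had 1 symbol, 0 several and 1719 none.

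Pairs follow the genotype label. limma's moderated test used all 8 arrays with 4 pair blocks and 2 residual degrees of freedom, and each ± is its standard error, with the spread pooled over all 4 pairs. A bound ("at least N-fold") sets the brighter side's mean against the higher of the lowest detected level and the probe's own level on the dimmer arrays. The number of arrays limits the precision. The members, the gene lists and the rule for naming genes were chosen with earlier results of these data known. Named were the 15 members at each end by the smaller pair difference, the 5 genes each way with the smallest p, up to 6 genes of each list, members with pair differences farthest apart, genes nearest the 2-fold line, members opposite in the gut, and some Treg and T cell genes fixed by name. Others are named by their values. The fit was tested on simulated data, and the outcome is not given here.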

Additional observations from a re-analysis of the deposited data

Results flagged for a closer look

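The difference of Treg and Tcon had opposite directions in the 2 tissues for 12 named members, since both spleen pairs differed one way and both gut pairs the other. In these genes the spleen minus gut difference did not pass limma's test over 7916 genes, with adjusted p between 0.418 and 0.716. Several values rest on levels that were not detected and are no exact folds: Acvr2b, Kif4, Gna14 and Cxcl16 were undetected on both splenic Tcon arrays, Aplf, Plekha5 and Ppp1r16b on both splenic Treg arrays, and Sptb and Alg11 on 1 spleen array. In the K14 gut pair Gna14 (-0.03), Acvr2b (-0.10), Alg11 (0.05) and Mcm10 (-0.27) were near 0, so for these 4 the opposite direction rests on the control gut pair. Among higher members in the spleen, the spleen minus gut difference was 5.69 ± 1.18 for Sptb, a spectrin chain of the red cell skeleton, 4.33 ± 1.14 for Acvr2b, an activin receptor, 4.05 ± 1.64 for Mcm10, a replication factor, 3.65 ± 0.84 for Kif4, a kinesin, 3.52 ± 0.87 for Gna14, a G protein subunit, and 2.88 ± 0.32 for Cxcl16, the ligand of Cxcr6. Sptb, for example, was at 7.09 and 5.71 in splenic Tcon and 9.65 and 9.26 in splenic Treg, and at 10.75 and 9.82 in gut Tcon and 9.69 and 5.61 in gut Treg. Among lower members it was -6.59 ± 0.96 for Aplf, a DNA repair factor, -4.60 ± 0.47 for Plekha5, -3.64 ± 0.58 for Ppp1r16b, -3.52 ± 0.65 for Bcorl1, a corepressor, -3.25 ± 0.90 for Kcnh2, a potassium channel, and -3.25 ± 1.19 for Alg11, an enzyme of protein glycosylation. Aplf was at 10.13 and 8.08 in splenic Tcon and 5.67 and 6.08 in splenic Treg, and at 5.84 and 5.62, not detected, in gut Tcon and 8.73 and 9.46 in gut Treg. These genes were taken as the 6 each way with the largest opposite gut difference, out of 30 higher and 25 lower members with opposite signs in both gut pairs. Those are 9.29% of the higher and 14.6% of the lower members. Of all genes tested, 29.2% were lower and 28.8% higher in both gut pairs.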

How the results depend on the processing

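The number of genes past limma's test in the spleen depended on the fit: it was 0 with the pairing block and 49 with no replicate block, 7 with an intensity trend, 2 with the authors' log2 values and 2 with no background correction. Ctla4 and Prnp were the 2 in both of the last settings, with differences of 4.15 and 3.97 in the latter. The 323 higher and 171 lower members became 140 and 67 on the authors' values, 183 and 88 with no background correction, 545 and 429 at a 1.5-fold line and 87 and 41 at a 4-fold line. Of those on the authors' values, 139 and 67 were the same genes. With 1 pair alone the counts ranged from 626 to 831 higher and from 514 to 727 lower. The share of members with the same sign in both gut pairs was 60.1%, beside 28.8% of all genes higher and 29.2% lower there. It became 74.4% on the authors' values, 71.6% with no background correction and 54.7% and 72.7% at the 1.5-fold and 4-fold lines. With 1 spleen pair alone it was 43.5% to 49.9%. In single gut pairs, added after seeing the data, 73.5% (K14) and 75.5% (control) had the same sign. Agreement in 1 gut pair asks less than agreement in both, so these 2 shares are not comparable with 60.1%. These 2 shares and those under the other settings are given without the share of all genes. They are therefore not read as agreement beyond that of all genes. An offset of 50, median centring, other probes or filters, and spleen arrays normalized alone kept each of these counts within 1.5 times and the test at 0, as did leaving out either gut pair, added after seeing the data. No alternative that kept gut arrays gave a gene past the test of spleen against gut.

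Of 144 named genes, none of the members changed sign under the alternatives run for single genes. For the 2 single pairs this was fixed by the rule, which asks for the same direction in both pairs. With no replicate block it was fixed too, since that fit leaves the difference unchanged. Values near 0 changed sign: Cd3e was 0.00817 and Ctrl -0.0382 on the authors' values, and Hba-a1 -0.0685 there and -0.0292 with no background correction. Between the 2 single pairs (leave-one-out) the differences ranged as follows. These were Ly6d from -0.11 to 1.56, Cd22 from -0.22 to 0.78, Fcer1g from -0.98 to 0.046, Tyrobp from -0.91 to 0.0442, H2-Ab1 from -0.60 to 0.19 and H2-Aa from -0.91 to 0.0622. Others were Hba-a1 from -0.24 to 0.28, Ctrl from -1.52 to 1.85, Cela3b from -0.0406 to 0.24, Kdr from -0.0697 to 0.31, Cd3e from -0.0282 to 0.0238 and Cd79a from -0.37 to 0.28. The rest were Cst3 from -0.14 to 0.25, H2-DMa from -0.62 to 0.20, H2-Eb1 from -0.0277 to 0.13, Slc4a1 from -0.43 to 0.17 and Cela1 from -1.04 to 0.0449. The cause of these turns was not tested, and dim probes near the lowest detected levels (6.72 to 6.88 in the spleen) limit what the arrays can show.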

Other observations

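Members of 17 gene families were counted, families picked out after values were seen, beside 4.08% of all genes as higher and 2.16% as lower members. The counts are a description of families chosen in this way. Of 9 Rgs genes, which shorten G protein signals, 3 were higher members: Rgs1 was at 10.94 and 10.50 in Tcon and 13.50 and 13.18 in Treg, Rgs16 was at 10.997 and 11.46 in Treg and in Tcon at 7.86 and, not detected, 5.89, and Rgs9 was at 10.20 and 11.04 in Treg and not detected in control Tcon. In the gut Rgs1 had differences of -0.18 and -0.14, while Rgs16 had 2.79 and 4.09. Of 5 measured genes of the NADPH oxidase complexes, which make reactive oxygen, 3 were higher members: Noxa1 was not detected in Tcon and was at 9.49 and 9.04 in Treg, at least 5.50-fold higher, Noxo1 differed by 1.51 ± 0.40 and Ncf4 by 1.19 ± 0.25. Another Noxo1 probe detected on both Treg arrays differed by only 0.23 in the control pair and 0.35 in the K14 pair. Both Naip genes measured, Naip2 and Naip5, which encode inflammasome sensors, were higher members, with a difference of 2.16 ± 0.33 for Naip2 and Naip5 not detected in control Tcon, as were 2 of 6 caspases, Casp1 (1.38 ± 0.24) and Casp4 (2.20 ± 0.33). Casp4 probes disagree: another detected on both Treg arrays differed by 2.18 and 1.80 in the control and K14 pairs, and a further one by only 0.25 and 0.14.

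Of 7 genes of the Socs family with Cish, 3 were higher members and none was lower, Socs5 (8.89 and 8.26 in Treg, detected on 1 of 2 Tcon arrays) joining Cish and Socs2. Of 4 Hoxa genes, 2 were lower members: Hoxa5 was not detected in Treg, at least 3.05-fold lower, and Hoxa7 was at 8.18 and 9.59 in Tcon and, not detected on the control array, at 5.92 and 8.15 in Treg. Some families had members both ways: killer-cell lectin-like receptors had 1 higher and 2 lower members of 7, sialyltransferases 1 and 2 of 11, sulfotransferases 1 and 2 of 11, and S100 genes 1 and 1 of 8. Galectins gave 0 members of 7 and annexins 1 of 6. None of these differences passed limma's test over all genes.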
